A study of Mus musculus with 8 samples.

Results

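The 10 imprinted growth genes described here lie outside the Dlk1-Dio3 cluster. H19, Igf2r, Cdkn1c, Grb10 and Gnas were classed as maternally expressed and Igf2, Peg3, Plagl1, Mest and Ndn as paternally expressed. The Gnas locus makes transcripts from either copy, so its class is a working label. Members were all non-control probes that carried 1 of these gene names in the array output, which gave 24 of 41174 probes on the array. Of these, 21 were detected, meaning well above background on 3 or more arrays of at least 1 diet, among 31056 detected probes in all. Liver RNA came from male C57BL/6 mice, 14 to 17 weeks old at the start, that received the standard chow (STD) diet or the atherogenic (ATH) diet for 4 weeks. The atherogenic diet is rich in fat and cholesterol, contains cholic acid and serves as a model of fatty liver disease with inflammation. All 8 mice were wild type, with 4 per diet, and each had 1 array.

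Genomic imprinting leaves a gene active on the copy inherited from 1 parent and largely silent on the other. The copies are told apart by DNA methylation that is set in the germ line and kept in body cells through later divisions. Many imprinted genes act on growth before birth, and several, Igf2 and H19 among them, are switched down in mouse liver after birth. The arrays measured RNA from both copies together, so they do not show which copy was active.

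Mest was the only gene of the set that passed the test for diet, and it was higher in the ATH livers. Its upstream sequence is shown because it holds CpG dinucleotides, the sites at which imprinting methylation is placed. RefSeq promoter windows (GRCm38.p6, the 250 bases before a transcript start) were found for 8 of the 10 genes, in 17 windows, and not for H19 and Cdkn1c. Below are the windows of 2 Mest transcript starts, both on the plus strand, with each CG in capitals.
Mest window 1, chr6:30733256-30733505: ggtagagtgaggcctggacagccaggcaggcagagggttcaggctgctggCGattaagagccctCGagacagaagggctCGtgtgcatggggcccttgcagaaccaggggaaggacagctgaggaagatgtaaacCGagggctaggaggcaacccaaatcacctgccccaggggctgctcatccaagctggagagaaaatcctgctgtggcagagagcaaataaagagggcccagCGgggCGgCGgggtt
Mest window 2, chr6:30737800-30738049: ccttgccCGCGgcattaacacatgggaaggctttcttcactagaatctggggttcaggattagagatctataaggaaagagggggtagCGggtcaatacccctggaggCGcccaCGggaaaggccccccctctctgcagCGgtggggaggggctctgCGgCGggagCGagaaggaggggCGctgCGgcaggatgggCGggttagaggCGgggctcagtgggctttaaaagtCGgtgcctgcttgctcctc
Window 1 held 7 CG and window 2 held 14 CG, where the median over 32851 mouse promoters was 6. At least 7 CG stood in 46.3% of all promoters, and at least 14 CG in 29.4%. The window of the remaining Mest start began 3 bases after window 2 and also held 14 CG. CpG counts describe the sequence, and methylation was not measured.

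Signals are given as log2 processed signal minus the 75th percentile of the same array, so that 0 marks the 75th percentile of all probes. A value compares arrays for 1 probe and does not rank genes against each other. The scaling matters here because the 75th percentile was itself 0.45 higher (log2) on the ATH arrays, while the median spike-in signal was 0.14 higher. The median log2 fold change of all detected probes was accordingly -0.15 with this scaling, 0.16 with scaling to the spike-in probes and 0.30 with no scaling. Arrays of the same diet correlated at 0.971 or above over detected probes. Each diet had a slide of its own, and a slide difference and a diet difference cannot be told apart. The livers were checked against hepatocyte markers, and the 7 of 8 with a probe (not Serpina1a) were well above background on all 8 arrays.

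At a false discovery rate of 1%, the threshold of the study, limma called 0 of the 21 member probes, against 0.528% of all detected probes. At 5% it called 1 of 21, the Mest probe, against 8% of all detected probes in either direction and 3.06% higher, and nothing can be read about the set from 1 call. At an unadjusted p under 0.05 limma gave 8 of 21 (38.1%, against 28.4% of all probes). These probes are not independent, since several read the same gene. With the brightest probe of each gene the count was 3 of 10 (30%). Among the 8, Igf2 A_51_P516833 and Gnas A_52_P219393 were well above background on only 1 ATH array each. The study names an unequal-variance test, and a test of that type was run here. It gave 6 of 21 at an unadjusted p under 0.05, where 22.9% of all probes were, and 0 after adjustment. The study lists changed probes at 1% from its own software and filter, whereas the test run here called 0 of all probes at 1%. The diets did not overlap at 4 of 21 probes, where 19.9% of all detected probes did not. These were the Mest probe, higher in ATH (6.01% of all probes), and 1 Peg3 and 2 Gnas probes, lower in ATH (13.8% of all probes). In sign alone, 9 of 21 were higher in ATH, against 32.9% of all probes. This count moved with the scaling, to 15 of 21 with no scaling (80.8% of all probes), 14 with spike-in scaling (68.8%) and 3 with normexp background correction (22.6%). Of the probes called at 5% over the whole array, 38.2% were higher here, 94.9% with no scaling, 86.4% with spike-in scaling, 55.0% with median scaling, 54.3% with quantile normalization and 18.9% with normexp background correction. In a whole tissue, fewer cells of a type and less RNA per cell cannot be told apart at any of these probes.

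**Figure D1:**
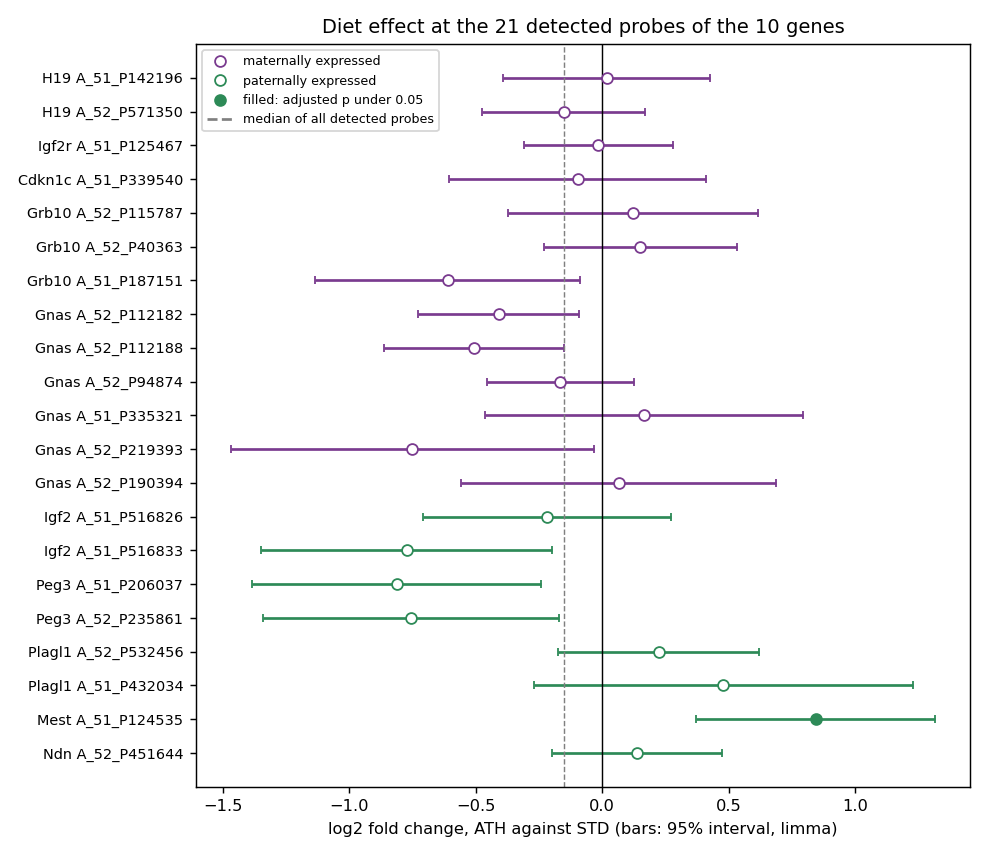
Log2 fold change of the atherogenic against the STD diet (horizontal axis) with its 95% interval from limma for each of the 21 detected probes, in purple for maternally and green for paternally expressed genes. All Gnas probes are in purple after the working label of the gene, whichever transcript they read. The 1 filled point is Mest at 0.84, and the dashed line marks the median of all detected probes at -0.15.

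Mest encodes a protein of the alpha/beta hydrolase family and is paternally expressed. It was read by 1 probe, at chr6:30680425-30680484 on the plus strand (mm7, the assembly of the array design). The scaled signal was -1.81, -1.61, -1.59 and -1.87 in the 4 STD livers and -0.74, -0.95, -1.41 and -0.40 in the 4 ATH livers. Every ATH liver was above every STD liver, and the ATH livers spread more widely (SD 0.423 against 0.142, n = 4 each). Mest rose by a log2 fold change of 0.84 (SE 0.209, 95% interval 0.37 to 1.32), or 1.79-fold, with a limma adjusted p of 0.0445. Blocking on the replicate number gave an adjusted p of 0.0801 (0 of 21 member probes called, against 4.26% of all probes), and with the unequal-variance test the adjusted p was 0.170. The log2 fold change stayed positive in all 21 alternative settings, from 0.60 with normexp background correction to 1.29 with no scaling, but 10 of the 21 put the adjusted p above 0.05. Among these were 6 of the 8 fits that left out 1 array, with adjusted p values of 0.0794 without ATH1, 0.0970 without ATH4, 0.111 without STD1, 0.0759 without STD2, 0.0927 without STD3 and 0.105 without STD4.

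Marker genes of other cell types also differed between the diets in the same livers. All 8 macrophage markers were higher in ATH (median log2 fold change 1.73), and their summed scaled signal ran from 55.1 to 75.9 in STD and from 105 to 594 in ATH livers. The brightest of them, Lyz2, weighed most in this sum. All 8 stellate cell markers were higher (median 0.31, summed signal 11.5 to 13.7 against 16.7 to 27.9). All 7 proliferation markers were higher (median 1.14, summed signal 1.51 to 2.89 against 3.46 to 11.7). Of these, limma called 4 macrophage markers (Cd68, Lyz2, Cd14 and Marco), 1 stellate cell marker (Col3a1) and 1 proliferation marker (Mki67) at 5%. The shares were 50%, 12.5% and 14.3%, against 8% of all detected probes. With the replicate block the adjusted p was 0.0551 for Cd68, 0.0524 for Cd14 and 0.0737 for Mki67. The 7 hepatocyte markers were all lower, with a median of -0.22, which became 0.23 without scaling, and their summed signal was 2052 to 2128 in STD and 1357 to 1914 in ATH livers. Alb, the brightest of them, weighed most in this sum, and its log2 fold change was -0.42 here and 0.03 with no scaling. Tat, a hepatocyte enzyme of tyrosine breakdown, was called lower (log2 fold change -1.05, adjusted p 0.0104, and -0.61 without scaling). In other cell types limma called the endothelial Lyve1 (1.21, adjusted p 0.0361) and the cholangiocyte Sox9 (1.04, 0.0390) higher and the erythroid Alas2 (-0.90, 0.0466; 0.0626 with the block, 0.103 without scaling) lower. Of these 10 marker calls, 9, all but Tat, were lost without ATH3, without ATH4 and without each of the 4 STD arrays (adjusted p 0.0519 to 0.117), and the unequal-variance test called 0 of the 10. The part of these cells in the Mest difference was not tested.

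The 5 genes whose values over the 8 arrays lay nearest to Mest, each centred on its own mean, were Mcm3, Rad51ap1, Ddit4l, Mcm6 and Fcgr2b. The root mean square difference from Mest was 0.137 for Mcm3 and 0.164 for Fcgr2b (log2, 14955 genes compared). This likeness rests on 8 livers that share the diet difference, and it is a description only.

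**Figure D2:**
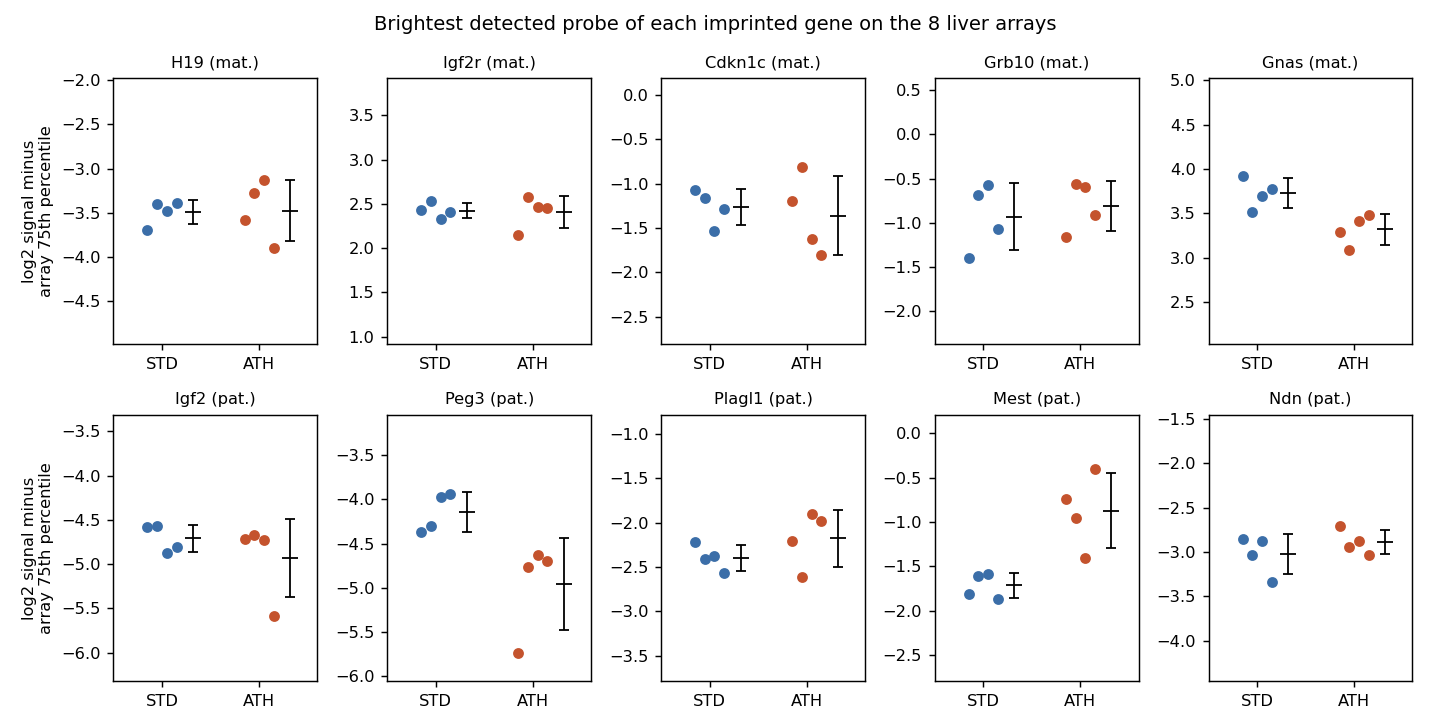
Scaled log2 signal (vertical axis, log2 signal minus the 75th percentile of the array, each panel spanning the same range) of the brightest detected probe of each gene, with 1 point per liver and the mean and SD of 4 livers beside them, in blue for STD and red for ATH. The ATH points lie above the STD points for Mest, below them for Peg3 and Gnas, and overlap them for the other 7 genes.

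Peg3, a paternally expressed zinc finger protein gene, had its nominal difference in the opposite direction to Mest. Its brightest probe lay at chr7:6266913-6266972 on the minus strand (mm7) and is shown, with the 2 Gnas probes described below, because its diets did not overlap and the difference missed the threshold.
Peg3 A_51_P206037: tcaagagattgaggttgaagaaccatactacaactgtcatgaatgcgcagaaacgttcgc
Gnas A_52_P112182: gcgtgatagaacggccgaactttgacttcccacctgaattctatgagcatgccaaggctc
Gnas A_52_P112188: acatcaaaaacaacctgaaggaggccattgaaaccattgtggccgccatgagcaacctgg
The Peg3 signal was -4.37, -4.30, -3.97 and -3.94 in STD and -5.73, -4.76, -4.63 and -4.70 in ATH livers. All ATH values were below all STD values, with ATH1 apart from the other ATH livers. Its log2 fold change was -0.81 (SE 0.252, 95% interval -1.38 to -0.24) with a limma adjusted p of 0.0786, and without ATH1 it was -0.55 with an adjusted p of 0.0726. With normexp background correction it was -0.39 with an adjusted p of 0.0327. With no scaling it was -0.37 with an adjusted p of 0.336, and with spike-in scaling -0.50 with 0.233. A second Peg3 probe, at chr7:6265247-6265306, read -4.75, -4.18, -4.17 and -3.81 in STD and -5.11, -5.51, -4.79 and -4.51 in ATH livers. Its diets overlapped, and its log2 fold change was -0.76 with an adjusted p of 0.0981. The remaining Peg3 probe was not detected and was well above background on 2 of 4 STD and 0 of 4 ATH arrays, with overlapping values.

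Igf2 encodes insulin-like growth factor 2, the main paternally expressed growth factor of the fetus, and Igf2r encodes the receptor that clears it. The brightest Igf2 probe (chr7:139078075-139078135, mm7, minus strand, printed in 10 spots) read -4.58, -4.57, -4.87 and -4.81 in STD and -4.72, -4.67, -4.73 and -5.59 in ATH livers. Of the ATH livers, 3 lay within the STD range and ATH4 lay below it. A log2 fold change of -0.22 (SE 0.216, 95% interval -0.71 to 0.27, adjusted p 0.529) was obtained, and it turned to 0.02, 0.09 and 0.23 under quantile, spike-in and no scaling. The second Igf2 probe (chr7:139078490-139078549) was well above background on 3 STD arrays and 1 ATH array. It read -5.07, -5.35, -4.88 and -5.66 in STD and -5.61, -5.62, -6.39 and -6.41 in ATH livers, with a log2 fold change of -0.77 (SE 0.254, adjusted p 0.0898). This became -0.39 with an adjusted p of 0.0433 under normexp background correction, and -0.33 with an adjusted p of 0.296 with no scaling. The Igf2 probes thus differed in size, with overlap between diets at both.

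Igf2r was measured at chr17:11399590-11399648 (mm7, minus strand). It read 2.43, 2.53, 2.33 and 2.41 in STD and 2.15, 2.58, 2.46 and 2.45 in ATH livers, and the ATH range held the STD range. The log2 fold change was -0.02 (SE 0.130, adjusted p 0.951), with a 95% interval of -0.31 to 0.28, and it was 0.06, 0.11, 0.29 and 0.43 with median, quantile, spike-in and no scaling.

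H19, a maternally expressed non-coding RNA that shares its control region with Igf2, read -3.69, -3.40, -3.48 and -3.39 in STD and -3.58, -3.28, -3.13 and -3.90 in ATH livers at its brightest probe (chr7:139003144-139003203, mm7, minus strand). The diets overlapped, and the log2 fold change was 0.02 (SE 0.181, 95% interval -0.39 to 0.43, adjusted p 0.962), which turned to -0.19 with normexp background correction. The other H19 probe (chr7:139003393-139003540) had a log2 fold change of -0.15 (SE 0.142, 95% interval -0.48 to 0.17, adjusted p 0.505). The signs of the H19 probes differed, and both intervals held 0.

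Cdkn1c encodes p57Kip2, an inhibitor of cyclin-dependent kinases. It read -1.07, -1.16, -1.53 and -1.29 in STD and -1.20, -0.81, -1.62 and -1.81 in ATH livers (chr7:139886128-139886187, mm7, minus strand). The highest and the lowest values were both from ATH livers. Cdkn1c had a log2 fold change of -0.10 (SE 0.224, 95% interval -0.60 to 0.41, adjusted p 0.802), and it was 0.21 with spike-in and 0.35 with no scaling.

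Grb10 encodes an adaptor protein that binds the insulin and IGF1 receptors and dampens their signalling. Its brightest probe (chr11:11882970-11883029, mm7, minus strand) read -1.40, -0.68, -0.57 and -1.07 in STD and -1.16, -0.56, -0.60 and -0.91 in ATH livers, with a log2 fold change of 0.12 (SE 0.218, 95% interval -0.37 to 0.61, adjusted p 0.743). The diets overlapped throughout. A second probe (chr11:11922579-11922638) had a log2 fold change of 0.15 (adjusted p 0.583), which was 0.60 with an adjusted p of 0.0265 without scaling. The remaining probe (chr11:11885585-11886233) read -4.82, -4.07, -3.91 and -4.61 in STD and -5.19, -4.60, -4.92 and -5.14 in ATH livers. Its log2 fold change was -0.61 (SE 0.232, adjusted p 0.125), so the 3 Grb10 probes did not share a direction.

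The Gnas locus on chromosome 2 makes several transcripts from separate starts. They include Gsα, the stimulatory G protein subunit that couples glucagon receptors to adenylyl cyclase in liver and is read from both copies in most tissues, the maternally expressed NESP and the paternally expressed XLαs and exon 1A transcripts. Of 8 probes, 6 were detected. They were tied to transcripts by the descriptions and accessions of the array design alone, and exon structure was not checked. The probes A_52_P112182 (chr2:174086289-174087618) and A_52_P112188 (chr2:174086070-174086231, both mm7, plus strand), whose sequences are given above, are described as reading coding sequence of the Gsα mRNA, part of which other coding transcripts share. A_52_P112182 read 3.92, 3.52, 3.69 and 3.78 in STD and 3.29, 3.09, 3.41 and 3.48 in ATH livers. A_52_P112188 read 2.76, 2.25, 2.59 and 2.71 in STD and 2.06, 1.82, 2.19 and 2.21 in ATH livers. Every ATH liver was below every STD liver at both probes, by a narrow margin.

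The log2 fold change was -0.41 (SE 0.140, 95% interval -0.73 to -0.09, adjusted p 0.0985) at A_52_P112182, which turned to 0.04 with no scaling. It was -0.51 (SE 0.157, 95% interval -0.86 to -0.15, adjusted p 0.0785) at A_52_P112188 and -0.06 with no scaling. The probe described as the NESP transcript (A_52_P219393, chr2:174028787-174028846) read -4.98, -4.73, -4.40 and -4.33 in STD and -5.74, -4.37, -5.77 and -5.56 in ATH livers. It was well above background on 4 STD arrays and on 1 ATH array, ATH2, which lay among the STD values. The log2 fold change was -0.75 (SE 0.317, adjusted p 0.160), -0.46 with an adjusted p of 0.0440 under normexp background correction, and -1.08 with an adjusted p of 0.0108 without ATH2. Those 2 settings called 6394 and 3979 of all 31056 detected probes. With no scaling the NESP probe had -0.30 (adjusted p 0.424), with spike-in scaling -0.44 (0.304) and with quantile normalization -0.51 (0.320). The probe listed with the non-coding exon 1A transcript (A_51_P335321) had a log2 fold change of 0.17 (SE 0.278, adjusted p 0.726), and the detected probe listed with XLαs (A_52_P190394) 0.07 (SE 0.275, adjusted p 0.896). The last detected probe, A_52_P94874, had -0.17 (SE 0.128, adjusted p 0.419), and neither of the undetected probes allowed a bound.

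**Figure D3:**
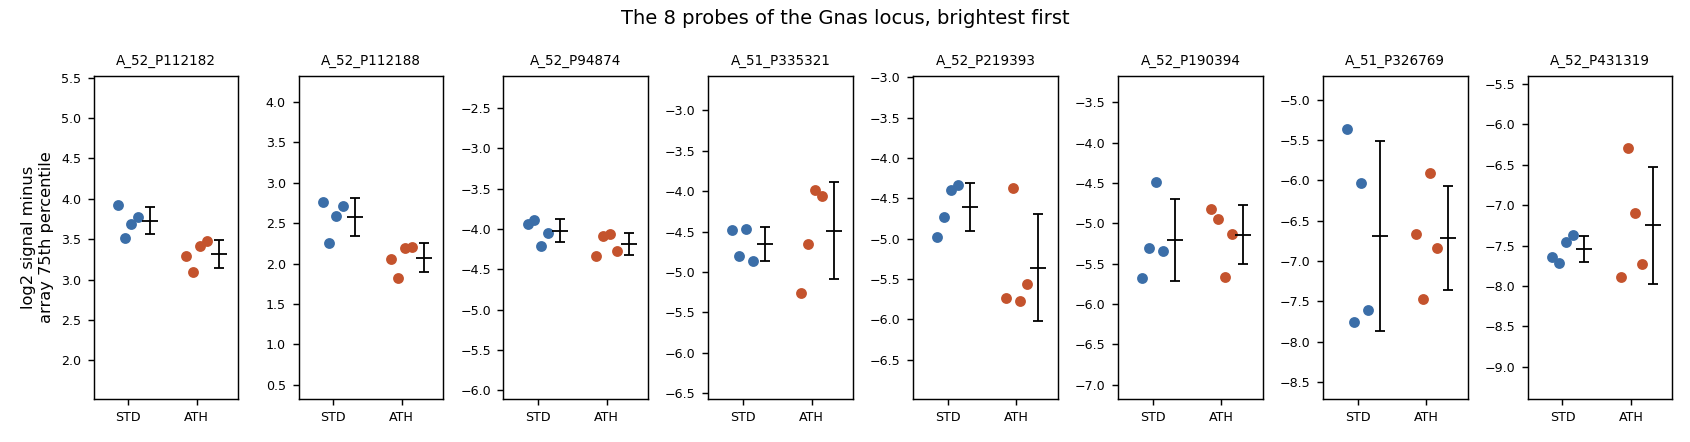
Scaled log2 signal (vertical axis, log2 signal minus the 75th percentile of the array) of the 8 Gnas probes with 1 point per liver and the mean and SD of 4 livers per diet, in blue for STD and red for ATH. At A_52_P112182 and A_52_P112188 the diets do not overlap, and at A_52_P219393 the ATH2 liver lies apart from the other ATH livers at -4.37.

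Plagl1 encodes a zinc finger transcription factor that acts on other imprinted genes. Its brightest probe (chr10:12831831-12831890, mm7, plus strand) read -2.22, -2.41, -2.38 and -2.57 in STD and -2.21, -2.61, -1.90 and -1.98 in ATH livers. The ATH livers spread on both sides of the STD range, with a log2 fold change of 0.22 (SE 0.176, 95% interval -0.17 to 0.62, adjusted p 0.424). The other probe was well above background on 1 STD and 4 ATH arrays and had a log2 fold change of 0.48 (SE 0.331, adjusted p 0.366).

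Ndn encodes necdin, a growth suppressor of the MAGE family that is paternally expressed. It read -2.85, -3.03, -2.87 and -3.34 in STD and -2.70, -2.94, -2.88 and -3.03 in ATH livers (chr7:58098778-58098837, mm7, plus strand), with overlap between the diets. Ndn had a log2 fold change of 0.14 (SE 0.149, 95% interval -0.20 to 0.47, adjusted p 0.571), which was 0.58 with an adjusted p of 0.0350 without scaling and -0.10 with normexp background correction.

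Grouped by the expressed copy and taking the brightest probe of each gene, 2 maternally expressed genes were nominally higher and 3 lower in ATH, with a median log2 fold change of -0.02. Of the paternally expressed genes 3 were nominally higher and 2 lower, with a median of 0.14. The median over all detected probes was -0.15. With no scaling the medians were 0.43, 0.58 and 0.30 in the same order, and with normexp background correction -0.13, -0.10 and -0.19. The log2 fold changes ran from -0.41 to 0.12 in the maternally and from -0.81 to 0.84 in the paternally expressed genes. Without Gnas the maternally expressed genes ran from -0.10 to 0.12 (median 0.0008), and without Mest the paternal median turned to -0.04. No test of the difference between the classes was made.

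**Figure D4:**
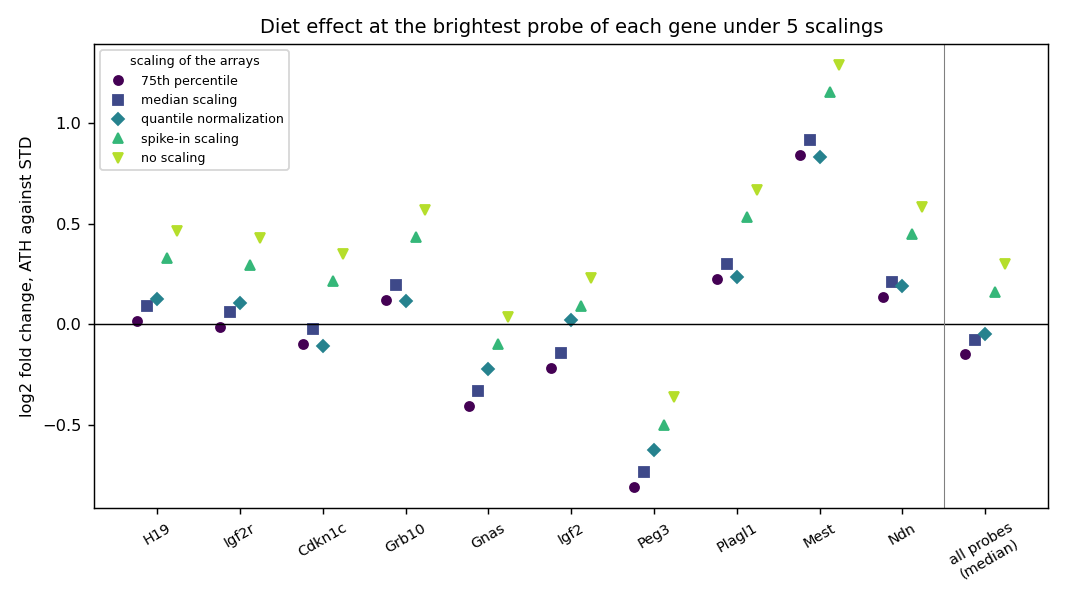
Log2 fold change of the atherogenic against the STD diet (vertical axis) at the brightest probe of each gene and as the median of all detected probes, with 1 symbol for each of 5 scalings of the arrays. Mest stays above 0 and Peg3 below 0 in all 5, Plagl1, Grb10, Ndn and H19 stay above 0, and Igf2r, Cdkn1c, Gnas, Igf2 and the median of all probes lie on both sides of 0.

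In a list of 51 other imprinted genes, 41 were detected, and 15 were nominally higher and 26 lower, with a median log2 fold change of -0.13. Of all detected probes, 32.9% were higher. Limma called 1 of the 41 at 5% (2.4%, against 8% of all detected probes). This was Tfpi2, which the list classes as maternally expressed and which encodes a protease inhibitor of the extracellular matrix. Tfpi2 fell from 1.76 ± 0.15 to 0.72 ± 0.27 (SD, n = 4), a log2 fold change of -1.04 with an adjusted p of 0.0138, and it was -0.60 with no scaling. The unequal-variance test gave an adjusted p of 0.0847. Within the Dlk1-Dio3 cluster itself, limma called 2 of 4 detected genes (50%, against the same 8%). These were the non-coding RNAs Meg3 (log2 fold change -3.56, adjusted p 0.00186) and Rian (adjusted p 0.0346), both lower. Rian was well above background on 3 STD arrays and on 0 ATH arrays, so only a bound on its means can be given. With this scaling, and leaving sampling error aside, the STD mean as read was 2.11-fold above the bound on the ATH mean. That STD mean takes in an array not well above background, so the bound is not strict. The bound does not hold under every scaling, since the log2 fold change of Rian was -0.93 with no scaling. The unequal-variance test gave 0.0585 for Meg3 and 0.137 for Rian, which also had 0.0582 with no filter on low signal. Without 1 array the adjusted p of Rian was 0.0526 to 0.0892 in 6 of 8 fits, and its call was kept only without ATH1 or ATH2. Whether these lists differ from the 10 genes was not tested.

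The wider insulin-like growth factor pathway was taken from a list of 18 genes, of which 16 were detected, 6 nominally higher and 10 lower, with a median log2 fold change of -0.26 that became 0.18 without scaling. Limma called 3 at 5% (18.8%, against 8% of all detected probes). Igfals encodes the acid-labile subunit that holds IGF in the circulation, and it fell from 3.51 ± 0.31 to 2.19 ± 0.20 (log2 fold change -1.32, adjusted p 0.00925). Igfbp7, a secreted IGF-binding protein, rose from 4.79 ± 0.08 to 5.32 ± 0.05 (0.53, adjusted p 0.0279). Igf2bp2, a protein that binds Igf2 mRNA, rose from -3.68 ± 0.15 to -2.95 ± 0.16 (0.73, adjusted p 0.0223, SD and n = 4 throughout). The adjusted p of Igfals stayed under 0.05 in every fit without 1 array, whereas those of Igfbp7 and Igf2bp2 rose to 0.0808 and 0.0715 without STD1. Both also passed 0.05 without STD2 (0.0596 and 0.0542), STD3 (0.0631 and 0.0648), ATH3 (0.0680 and 0.0596) and ATH4 (0.0716 and 0.0596), and Igfbp7 also without STD4 (0.0752). The unequal-variance test gave 0.0750 for Igfals, 0.0551 for Igfbp7 and 0.0723 for Igf2bp2, and with normexp background correction the adjusted p of Igf2bp2 was 0.227. With the replicate block the adjusted p of Igfbp7 was 0.0514, and Igfbp5, not called here with a log2 fold change of -1.38 and an adjusted p of 0.0739, had 0.0421. Neither the ligand Igf1 (-0.47, adjusted p 0.147) nor the receptors Igf1r (0.49, 0.0699), Insr (-0.45, 0.102) and Ghr (-0.48, 0.217) passed the threshold.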

How the data were processed

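Liver RNA from 4 STD and 4 ATH mice was labelled with Cy3 and hybridized to 1-color Agilent mouse arrays, 1 per mouse. The authors ran Agilent Feature Extraction 9.5, and the deposited spot intensity values (processed signal) are background-subtracted. The authors also deposited log2 values, which equal the log2 processed signal up to a constant per array and per probe for 100% of detected probes, within 0.001. Groups follow the diet given in the sample labels.

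Outlier-flagged spots were left out and spots of a probe averaged. The log2 processed signal minus the 75th percentile of non-control probes was tested for diet with limma 3.58.1 in R 4.3.3 (a two-sided moderated test from lmFit and eBayes, adjusted by Benjamini-Hochberg over 31056 detected probes). Detected means well above background and significant on at least 3 of 4 arrays of either diet. Summaries used Python 3.11.15 with numpy 2.4.6 and pandas 2.3.3. Every member is named, with the list genes called at 5%. For likeness, the member with the largest absolute log2 fold change among those detected on all 8 arrays was compared with other genes. The members and lists were chosen with earlier results of these data known. The fit was tested on simulated data. Alternatives changed the background correction, scaling, filter, probe, test and arrays used.

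Same-numbered arrays of the 2 diets deviated together (correlations 0.100, 0.230, 0.182 and 0.177 for numbers 1 to 4), so their numbers, given in the labels, were also used as a block. Positions of probes come from the array design (mm7), and promoter windows those of RefSeq (GRCm38.p6). The labels do not name separate litters or cages, and 4 arrays per diet limit the precision.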

Additional observations from a re-analysis of the deposited data

Results flagged for a closer look

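In 48 groups of 4 arrays at the probes of the 10 genes, 4 held an array set far apart from the other 3 (Dixon's test, 95% level), where chance gives about 1 in 20 groups. At the Grb10 probe A_52_P40363, STD4 read -4.33 and the other STD arrays -3.96 to -3.90. At the Gnas NESP probe A_52_P219393, ATH2 read -4.37 and the other ATH arrays -5.77 to -5.56. At the brightest Igf2 probe A_51_P516826, ATH4 read -5.59 and the other ATH arrays -4.73 to -4.67. At the brightest Peg3 probe A_51_P206037, ATH1 read -5.73 and the other ATH arrays -4.76 to -4.63. The arrays concerned were 3 different ATH arrays and 1 STD array.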

How the results depend on the processing

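Over the brightest probes of the 10 genes and 21 alternatives each, 175 of 210 values kept their direction and their side of the threshold. Mest kept its direction in all 21 and lost its call in 10, also with no filter on low signal (adjusted p 0.0715) and quantile normalization (0.0519). The direction turned for H19 with the 75th percentile over spots (-0.012), the median probe per gene (-0.068) and normexp (-0.191). It turned for Igf2r with median scaling (0.059), quantile normalization (0.107), spike-in scaling (0.295) and no scaling (0.431), and for Cdkn1c with spike-in (0.213) and no scaling (0.349). It turned for Gnas with the median probe (0.005) and no scaling (0.037), for Igf2 with quantile normalization (0.019), spike-in (0.092) and no scaling (0.228), and for Ndn with normexp (-0.097). Leaving out 1 array at a time gave -0.097 to 0.160 for H19, -0.073 to 0.071 for Igf2r, -0.280 to 0.052 for Cdkn1c, -0.035 to 0.240 for Grb10 and -0.303 to 0.001 for Igf2.

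The number of member probes called at 5% was 1, and 0 with no filter, quantile normalization, the replicate block or the unequal-variance test. It was 3 with no scaling (Grb10 A_52_P40363, Mest, Ndn), 5 with normexp (Mest, 2 Peg3 probes, Gnas A_52_P219393, Igf2 A_51_P516833) and 0 to 2 without 1 array, the 2 being Mest and Gnas A_52_P219393 without ATH2. Over all 31056 detected probes, 2483 were called in the main fit, 7364 with no scaling, 6394 with normexp and 3979 without ATH2. The added member calls came with these wider rises and are not read as a result about the members. The medians of maternally and paternally expressed genes were 0.295 and 0.448 with spike-in scaling and 0.431 and 0.584 with no scaling, and the paternal median was -0.097 with normexp. They ran from -0.073 to 0.052 and from 0.030 to 0.196 without 1 array.

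Over all detected probes, limma called 164 at 1% and 2483 at 5%. At 1% the count was 252 among probes detected on all 8 arrays, 37 with no filter, 488 with no scaling, 454 with normexp, 82 with spike-in scaling, 0 with the replicate block and with the unequal-variance test, and 5 to 1011 without 1 array. At 5% it was 1086 with no filter, 7364 with no scaling, 6394 with normexp, 1322 with the replicate block, 22 with the unequal-variance test and 394 to 3979 without 1 array. The replicate block changed no call of a member other than that of Mest. Slide as a block was not run, since each diet lies on its own slide. Beyond what the settings themselves define, the cause of these shifts was not tested. Signals close to background limit the second Igf2 and Plagl1 probes, the undetected Peg3 probe, Rian and the Gnas NESP and XLαs probes.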

Other observations

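Of 13 genes for placing, keeping and removing DNA methylation and for binding imprinted regions, 12 were detected, 7 nominally higher and 5 lower in ATH, with a median log2 fold change of 0.06 (0.51 with no scaling). Limma called 2 at 5% (16.7%, against 8% of all detected probes). Uhrf1, which brings the maintenance methyltransferase Dnmt1 to newly copied DNA, rose from -3.25 ± 0.26 to -1.96 ± 0.55 (SD, n = 4), a log2 fold change of 1.29 with an adjusted p of 0.0303. Tet1, an enzyme that oxidizes methylcytosine, fell from 0.81 ± 0.22 to 0.12 ± 0.18, a log2 fold change of -0.69 with an adjusted p of 0.0353 that was -0.24 with an adjusted p of 0.239 without scaling (0.144 with spike-in scaling). The adjusted p values of Uhrf1 and Tet1 were 0.0670 and 0.0601 with the replicate block, 0.141 and 0.0992 with the unequal-variance test and 0.0519 and 0.0593 with no filter on low signal. Without 1 array the adjusted p of Uhrf1 passed 0.05 for ATH1 (0.0530), STD1 (0.0808), STD3 (0.0736) and STD4 (0.0772). That of Tet1 passed it for ATH1 (0.0551), ATH3 (0.0796), ATH4 (0.0779), STD1 (0.0940), STD3 (0.0892) and STD4 (0.0852). Dnmt1 itself had a log2 fold change of 0.23 (adjusted p 0.337), and Trim28, a corepressor that protects imprints in the embryo, -0.10 (adjusted p 0.604).

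Of 7 genes that mark fetal liver or repress its genes after birth, 5 were detected and all were nominally lower in ATH, with a median log2 fold change of -0.21 that was 0.23 without scaling. Most probes of the array were also lower, since 32.9% of all detected probes were higher and 8% were called at 5%. Limma called 0 of the 5 at 5%, and 1, Hmga2 (-0.38, adjusted p 0.0986), had an unadjusted p under 0.05. Afp, the fetal serum protein, had -0.19 (SE 0.284, adjusted p 0.686), and Zbtb20, its repressor, -0.28 (SE 0.151, adjusted p 0.254). Gpc3 and Lin28b were not detected.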
